A study of Mus musculus with 32 samples.

Results

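The genes described here encode the mouse receptors for acetylcholine, serotonin, noradrenaline and adrenaline, dopamine and histamine. They were chosen by symbol alone, as the protein-coding genes named as nicotinic subunits (Chrn), muscarinic receptors (Chrm), serotonin receptors (Htr), adrenergic receptors (Adra, Adrb), dopamine receptors (Drd) or histamine receptors (Hrh). This gave 53 of the 51912 genes in the count table: 16 nicotinic, 5 muscarinic, 14 serotonin, 9 adrenergic, 5 dopamine and 4 histamine receptor genes. Nuclear RNA was sequenced from the muscle layer with the myenteric plexus of colon and small intestine (SI), from C57BL/6 mice kept specific pathogen free at the University of Bern or at the Francis Crick Institute. In every group the mice had received the virus AAV9-CaMKII-EGFPKASH by vein 5 weeks earlier, which puts EGFP on the nuclear envelope of cells that use the CaMKII promoter. Nuclei positive for EGFP are called neuronal and negative ones non-neuronal, as in the labels. Sort, segment and facility gave 8 groups of 4 libraries: neuronal Bern colon, Crick colon, Bern SI and Crick SI, and the same 4 for non-neuronal nuclei. The neuronal sort therefore holds nuclei in which this virus and promoter were active, and the non-neuronal sort can hold neurons in which they were not. The labels used here give neither age nor sex, nor whether the libraries of a group came from separate mice, so p-values measure the spread between these libraries, which may be technical.

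Total expected counts, the authors' RSEM estimates, were 2394513 to 8350887 per library (median 4364112). Levels are in CPM, each count divided by the TMM-adjusted size of its library and brought to the usual CPM base, in the order of libraries 1 to 4. Where no library of a group has a count, up to 3 counts over its 4 libraries remain possible, a floor of 0.127 to 0.239 CPM that covers counting error only. The summed level of 10 neuronal marker genes, among them Elavl4, Prph and Snap25, was 2049 to 4998 CPM in the 16 neuronal and 44.2 to 1547 CPM in the 16 non-neuronal libraries, without overlap, and all 10 had counts in every group. An earlier look at these data had set 6 libraries apart, so results were also computed without them: Crick SI neuronal 2, Bern colon non-neuronal 1 and 2, Crick colon non-neuronal 3, Bern SI non-neuronal 1 and Crick SI non-neuronal 2.

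Acetylcholine is the main fast transmitter between enteric neurons, where it opens nicotinic receptors, ligand-gated ion channels that in autonomic neurons are built mostly from alpha and beta subunits such as those of Chrna3 and Chrnb4. On smooth muscle it acts through muscarinic receptors, which couple to G proteins. Serotonin acts on enteric neurons through an ion channel of Htr3 subunits and through G-protein-coupled receptors, and noradrenaline from sympathetic fibres acts on neurons, muscle and vessels through alpha and beta receptors.

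Of the 53 genes, 34 reached a mean of 5 CPM in at least 1 of the 8 groups, and 14 reached 1 CPM in every group. Another 7 stayed under 1 CPM in every group: Adra1b, Adra1d, Chrm5, Chrna10, Drd5, Hrh4 and Htr5b. Counts were found in all 32 libraries for 7 genes, namely Chrm2, Chrm3, Chrna3, Chrnb1, Chrnb4, Htr1b and Htr2b. To compare genes with each other, levels were divided by exonic length. The Htr2b exons lie wholly within the gene Psmd1 on the opposite strand, and its part in the Htr2b levels was not tested. In colon neuronal nuclei Htr2b averaged 110 ± 21.9 CPM per kb, Chrnb4 91.8 ± 46.9 CPM per kb and Chrna3 69.1 ± 20.7 CPM per kb (SD, n = 8 each). In SI neuronal nuclei the order of these 3 leading genes was another, with Chrna3 at 63.1 ± 22.4 CPM per kb, Chrnb4 at 62.1 ± 22.8 CPM per kb and Htr2b at 41.4 ± 15.4 CPM per kb. Neighbours in each order differed by less than the larger of their SDs. In non-neuronal nuclei of the colon the leading levels were those of Htr2b at 21.6 ± 10.5 CPM per kb, Chrna3 at 14.1 ± 12.3 CPM per kb and Chrnb4 at 13.2 ± 10.4 CPM per kb, with Chrm2 at 9.91 ± 6.51 CPM per kb. In SI non-neuronal nuclei Chrm2 led at 31.3 ± 4.45 CPM per kb, ahead of Htr2b at 21.3 ± 4.60 CPM per kb, Adrb3 at 17.2 ± 14 CPM per kb and Chrnb1 at 12.9 ± 9.03 CPM per kb.

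**Figure D1:**
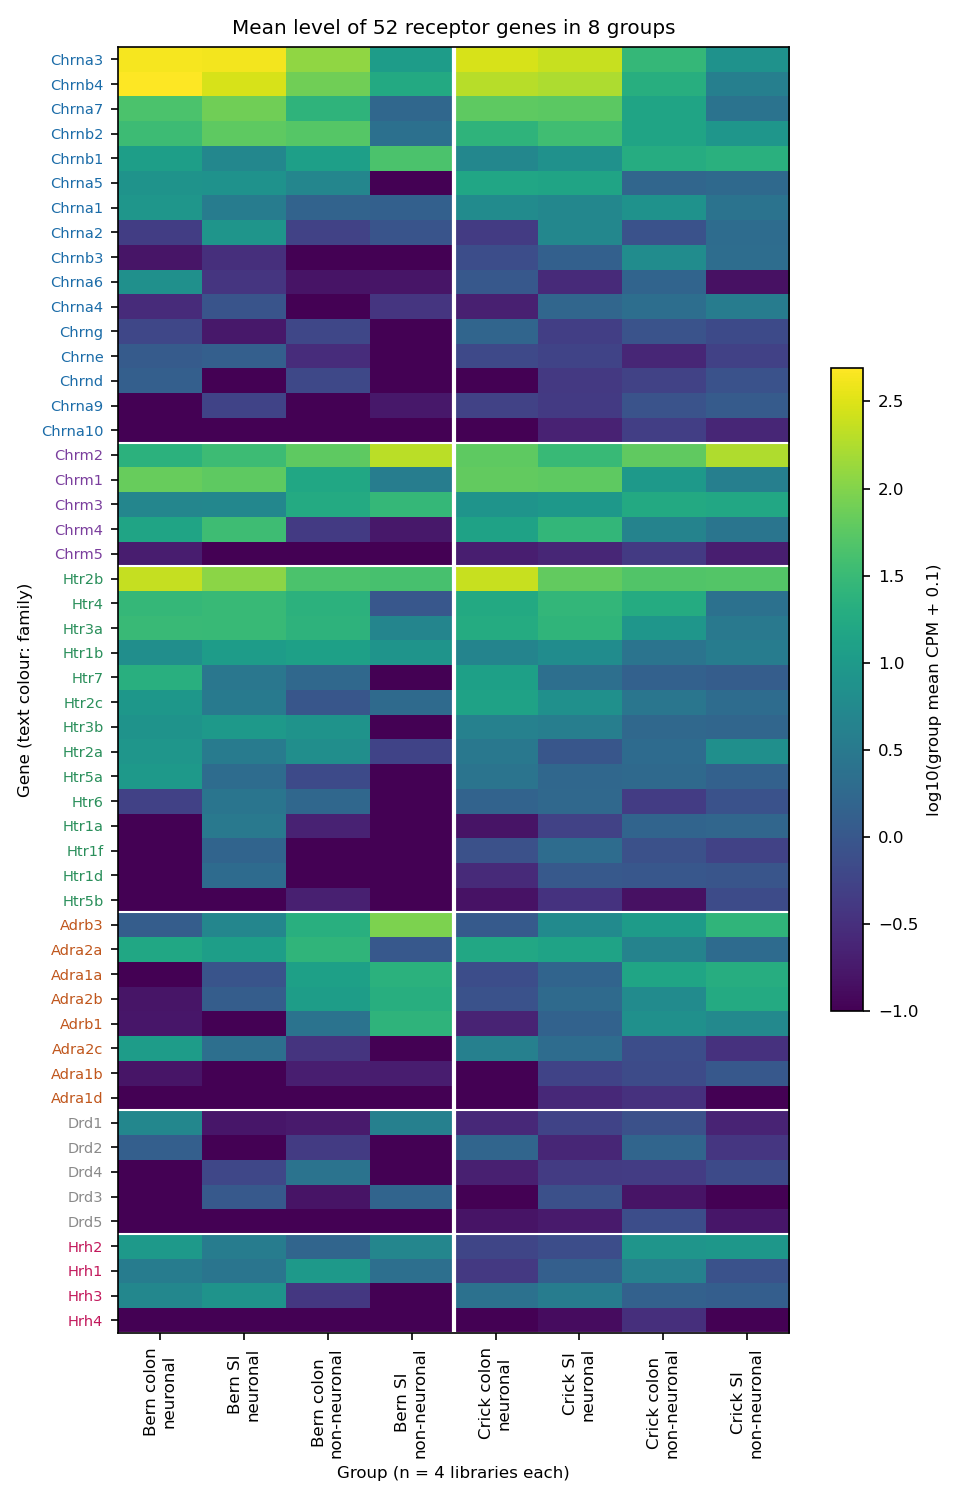
Mean level of 52 of the 53 receptor genes (rows, label colour by family) in the 8 groups of 4 libraries (columns), as log10 of CPM + 0.1. Chrna3, Chrnb4 and Htr2b are brightest in neuronal nuclei and Chrm2 in SI non-neuronal nuclei, and the dopamine receptor genes are dark in most groups.

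Summed over the family, nicotinic levels in neuronal nuclei were 1040 ± 166 CPM in Bern colon, 603 ± 21.1 CPM in Crick colon, 884 ± 138 CPM in Bern SI and 536 ± 92.7 CPM in Crick SI (SD, n = 4 each). In non-neuronal nuclei the nicotinic sum was 295 ± 118 CPM in Bern colon, 118 ± 22.4 CPM in Crick colon, 77.9 ± 61 CPM in Bern SI and 58.8 ± 15.1 CPM in Crick SI. Adrenergic sums in neuronal nuclei were 38.9 ± 17.4 CPM in Bern colon, 33.8 ± 6.6 CPM in Crick colon, 32.2 ± 19.3 CPM in Bern SI and 40.9 ± 1.3 CPM in Crick SI. Their non-neuronal counterparts had higher means in every stratum, at 83 ± 42.8 CPM in Bern colon, 51.6 ± 9.66 CPM in Crick colon, 162 ± 115 CPM in Bern SI and 77.4 ± 17.2 CPM in Crick SI. The 5 dopamine receptor genes together did not exceed a mean of 6.3 CPM in any group.

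The first comparison was between sorts, neuronal against non-neuronal nuclei, averaged over both facilities and both segments. Most nicotinic subunits and serotonin receptors tested were higher in neuronal nuclei, as were the muscarinic receptors Chrm1 and Chrm4, whereas Chrm2, Chrm3 and 4 adrenergic receptors were lower. Of the 35 receptor genes with enough counts to test, 18 rose and 7 fell at an adjusted p under 0.05 (edgeR quasi-likelihood test, Benjamini-Hochberg adjusted over all genes), which is 71.4%. The background was 43.5% of all 21521 genes tested (21.9% higher, 21.6% lower). The median log2 fold change, neuronal over non-neuronal, was 1.63 for the receptor genes and -0.01 for all genes. A group was at 0 for 12 receptor genes: Adra1a, Adra2c, Adrb1, Hrh3, Chrna4, Chrna5, Chrnb3, Htr1a, Htr3b, Htr5a, Htr6 and Htr7. Their fitted fold changes depend on the prior count and are no bounds, and with these genes set to the floor the median was 1.18. The other 18 receptor genes, among them all 5 dopamine receptor genes, had too few counts. A lower level can mean fewer nuclei of a type or less RNA per nucleus, which cannot be told apart in these pooled sorts.

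**Figure D2:**
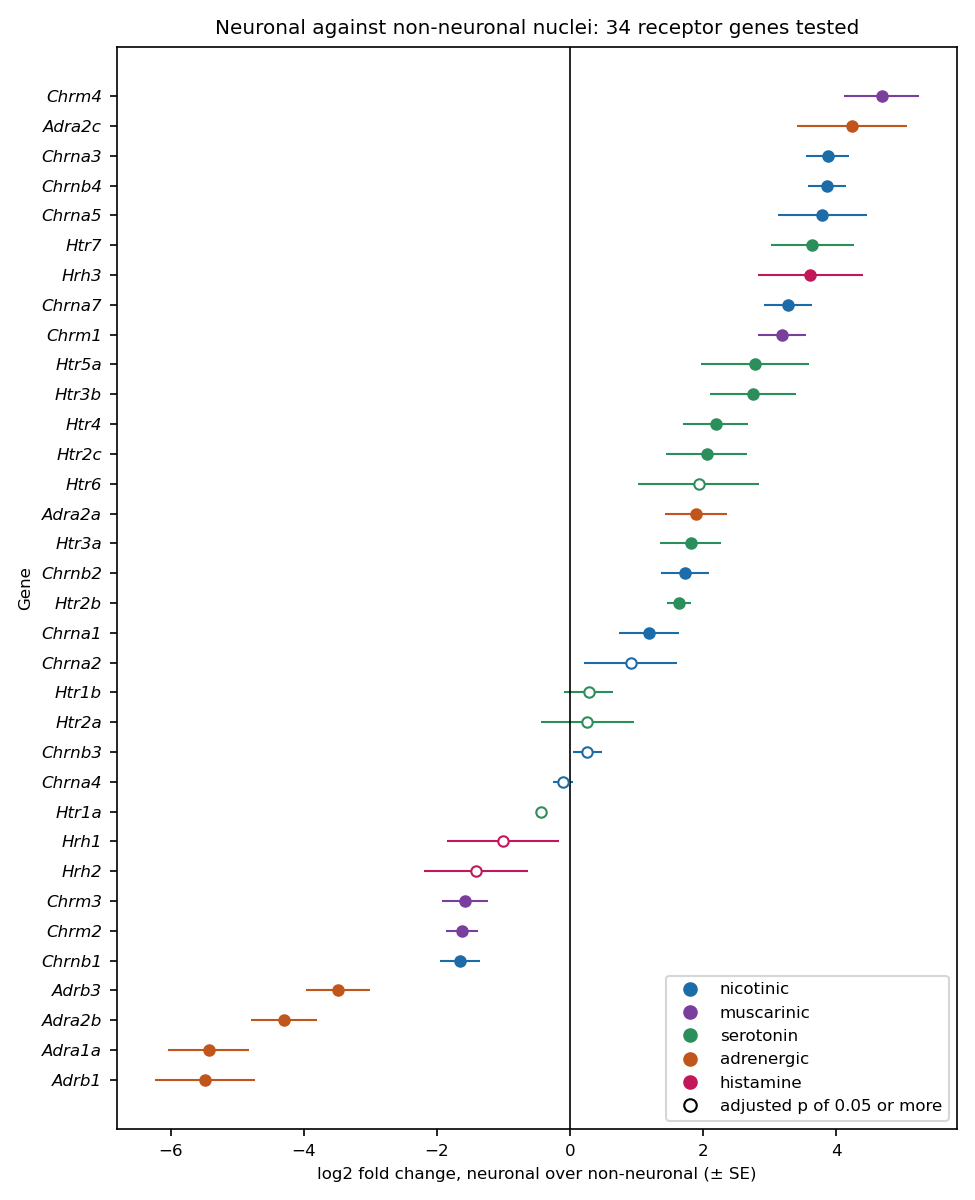
Log2 fold change of neuronal over non-neuronal nuclei ± SE for 34 of the 35 receptor genes tested, with the call shown by the points. Chrm4 lies highest at 4.68 and Adrb1 lowest at -5.49; no bar is drawn for Htr1a, whose SE could not be estimated.

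Of the 16 nicotinic genes 10 could be tested, and 6 rose and 1 fell. Chrna3 encodes the alpha3 subunit of the ganglionic receptor. Chrna3 had 443, 339, 592 and 360 CPM in Bern and 329, 321, 286 and 240 CPM in Crick colon neuronal nuclei. SI neuronal Chrna3 levels were 321, 527, 420 and 441 CPM in Bern and 219, 273, 255 and 201 CPM in Crick. The lowest of these was 201 CPM. Colon non-neuronal Chrna3 levels were 209, 116, 83.7 and 72.4 CPM in Bern and 44.5, 41.3, 16.6 and 11.9 CPM in Crick. SI non-neuronal Chrna3 levels were 36, 1.19, 2.07 and 3.85 CPM in Bern and 6.72, 4.94, 2.87 and 16 CPM in Crick. In each facility and segment every neuronal library lay above every non-neuronal one, and among non-neuronal libraries Bern colon was highest. Chrna3 rose by 3.87 ± 0.32 (adjusted p = 1.02e-12). Chrnb4 encodes beta4, the usual partner of alpha3. Chrnb4 had 618, 379, 490 and 470 CPM in Bern and 164, 137, 205 and 270 CPM in Crick colon neuronal nuclei. SI neuronal Chrnb4 levels were 242, 331, 289 and 310 CPM in Bern and 103, 271, 141 and 164 CPM in Crick. Bern colon was the highest group. Colon non-neuronal Chrnb4 levels were 99.9, 105, 77.5 and 27.9 CPM in Bern and 16.7, 23.6, 12.3 and 28.8 CPM in Crick. SI non-neuronal Chrnb4 levels were 45, 1.59, 18.3 and 3.33 CPM in Bern and 3.07, 2.86, 2.46 and 6.89 CPM in Crick. The sorts again did not overlap in any stratum. Bern SI non-neuronal library 1 was the highest of its group for Chrna3 and Chrnb4, and it also had the highest neuronal marker sum of that group, 769 CPM. Chrnb4 rose by 3.86 ± 0.29 (adjusted p = 1.48e-13).

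Chrna5 encodes an accessory subunit of the same receptors. Chrna5 had 3.84, 6.58, 6.87 and 13.8 CPM in Bern and 15.5, 21.9, 19 and 4.76 CPM in Crick colon neuronal nuclei. SI neuronal Chrna5 levels were 5.44, 12.1, 8.14 and 4.67 CPM in Bern and 9.5, 15.9, 16.5 and 14.5 CPM in Crick. All 16 neuronal libraries held Chrna5 counts. Colon non-neuronal Chrna5 levels were 1.37, 0, 17.5 and 0.228 CPM in Bern and 2.89, 2.6, 0.613 and 0 CPM in Crick. SI non-neuronal Chrna5 levels were 0, 0, 0 and 0 CPM in Bern and 2.5, 2.6, 0.41 and 1.49 CPM in Crick. The sorts overlapped in Bern colon, through library 3 of the non-neuronal sort, and nowhere else. Chrna5 rose by 3.79 ± 0.67 (adjusted p = 1.46e-05), a fitted value that includes a group at 0. Chrna7 encodes alpha7, which can form channels by itself. Chrna7 had 45.3, 42.4, 27.5 and 63.5 CPM in Bern and 74.8, 78.2, 58.5 and 27.5 CPM in Crick colon neuronal nuclei. SI neuronal Chrna7 levels were 52.9, 118, 82.2 and 59 CPM in Bern and 66.7, 22.6, 86.1 and 57.4 CPM in Crick. These values overlapped between segments. Colon non-neuronal Chrna7 levels were 5.48, 36.4, 21.4 and 35.2 CPM in Bern and 15.4, 21.6, 11.4 and 9.09 CPM in Crick. SI non-neuronal Chrna7 levels were 2.88, 3.18, 0 and 0.256 CPM in Bern and 0.384, 2.08, 1.64 and 5.68 CPM in Crick. The sorts overlapped for Chrna7 in Bern colon alone. Chrna7 rose by 3.28 ± 0.36 (adjusted p = 9.52e-10).

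Chrnb2 encodes beta2, the main beta subunit of the brain. Chrnb2 had 32.6, 40.2, 32.8 and 30.4 CPM in Bern and 20.9, 16.1, 40.5 and 21.2 CPM in Crick colon neuronal nuclei. SI neuronal Chrnb2 levels were 75.4, 44.1, 51.9 and 62.5 CPM in Bern and 25.5, 45.2, 28.2 and 43.7 CPM in Crick. Bern SI libraries were all above Bern colon ones. Colon non-neuronal Chrnb2 levels were 26.4, 160, 9.79 and 12.1 CPM in Bern and 13.1, 8.73, 10.2 and 25.3 CPM in Crick. SI non-neuronal Chrnb2 levels were 6.48, 0, 1.18 and 1.03 CPM in Bern and 6.33, 5.97, 4.92 and 17.4 CPM in Crick. Bern colon non-neuronal library 2, at 160 CPM, exceeded every neuronal library, and the sorts overlapped in colon at both facilities but not in SI. Chrnb2 rose by 1.73 ± 0.36 (adjusted p = 0.000129) over all strata, against 0.08 (adjusted p = 0.933) within colon. Its exons share 1365 bases (16.3%) with Adar on the opposite strand, and the labels do not say that counting used strand, so reads of the pair cannot be told apart there. Adar had a log2 fold change of 0.67, adjusted p = 0.0164. Chrna1, the alpha subunit of the muscle receptor, averaged 5.74 CPM in the neuronal and 3.14 CPM in the non-neuronal sort and rose by 1.18 ± 0.45 (adjusted p = 0.0319). That call ended when any of 7 libraries was left out (Bern colon neuronal 4, Bern SI neuronal 2, Crick colon non-neuronal 2, Crick SI non-neuronal 1 and 4, Crick SI neuronal 1 and 3), with adjusted p of 0.0505 to 0.0635, and with a block that sets each neuronal library against the same-numbered non-neuronal library of its facility and segment (1.11, adjusted p = 0.0916).

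Chrnb1, the beta subunit of the muscle receptor, ran the other way. Chrnb1 had 11.1, 12.4, 4.33 and 19 CPM in Bern and 5.88, 5.03, 6.08 and 3.32 CPM in Crick colon neuronal nuclei. SI neuronal Chrnb1 levels were 2.59, 7.67, 4.26 and 5.55 CPM in Bern and 5.56, 7.87, 8.84 and 6.77 CPM in Crick. No neuronal library exceeded 19.0 CPM. Colon non-neuronal Chrnb1 levels were 12, 4.81, 9.27 and 21.7 CPM in Bern and 18.3, 21.6, 15.5 and 20.2 CPM in Crick. SI non-neuronal Chrnb1 levels were 66.3, 28.7, 9.47 and 70.8 CPM in Bern and 18.2, 19, 25.2 and 24.5 CPM in Crick. Bern SI libraries 1, 2 and 4 were the highest of all, and the sorts overlapped in Bern colon alone. Chrnb1 fell by 1.65 ± 0.30 (adjusted p = 2.3e-05), with -0.96 (adjusted p = 0.0769) within colon. The 8 skeletal muscle markers summed to 32.6 to 135 CPM in neuronal and 28 to 1806 CPM in non-neuronal libraries, with Myh4 and Tnnt3 at 0 in both Bern neuronal groups and Myh4 and Mylpf at 0 in Bern SI non-neuronal nuclei, and their part in the Chrnb1 result was not tested. Chrna2, Chrna4 and Chrnb3 did not pass. The facilities went opposite ways for Chrna4, at -2.45 (adjusted p = 0.0462) within Crick and 2.26 (adjusted p = 0.0976) within Bern. Bern colon non-neuronal nuclei had no Chrna4 count. Without Bern SI non-neuronal library 1, Chrna2 passed (2.14, adjusted p = 0.0184), and likewise without Bern colon non-neuronal library 1 (1.89, adjusted p = 0.0305).

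The 4 muscarinic receptors tested divided evenly, with 2 higher and 2 lower. Chrm1 encodes M1, a Gq-coupled receptor that excites neurons. Chrm1 had 18, 63.1, 85 and 109 CPM in Bern and 55.5, 45.3, 65.3 and 83.5 CPM in Crick colon neuronal nuclei. SI neuronal Chrm1 levels were 81.4, 72.9, 44.6 and 42.3 CPM in Bern and 53.5, 56.9, 61.9 and 61.1 CPM in Crick. Library 1 of Bern colon was the lowest. Colon non-neuronal Chrm1 levels were 16.1, 16.3, 16.5 and 13.7 CPM in Bern and 9.57, 7.25, 12.1 and 10.6 CPM in Crick. SI non-neuronal Chrm1 levels were 0, 0, 11.8 and 2.56 CPM in Bern and 1.92, 7.53, 2.87 and 2.84 CPM in Crick. The sorts did not overlap in any stratum. Chrm1 rose by 3.19 ± 0.36 (adjusted p = 1.72e-09). Chrm4 encodes the Gi-coupled M4 receptor and had the largest log2 fold change of the 35 genes. Chrm4 had 15, 21, 20.1 and 1.3 CPM in Bern and 11.5, 12.7, 24.3 and 5.05 CPM in Crick colon neuronal nuclei. SI neuronal Chrm4 levels were 15.8, 36.4, 18.2 and 67.7 CPM in Bern and 19, 48.2, 19.9 and 24.6 CPM in Crick. Library 4 of Bern colon was the lowest. Colon non-neuronal Chrm4 levels were 0, 0, 1.29 and 0 CPM in Bern and 3.34, 1.49, 1.63 and 11 CPM in Crick. SI non-neuronal Chrm4 levels were 0, 0, 0.296 and 0 CPM in Bern and 0.576, 4.42, 0.41 and 5 CPM in Crick. The sorts overlapped in Crick colon alone. Chrm4 rose by 4.68 ± 0.56 (adjusted p = 7.39e-09), with 6.86 (adjusted p = 1.25e-07) within Bern and 2.50 (adjusted p = 0.00365) within Crick.

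Chrm2 encodes the Gi-coupled M2 receptor, abundant in gut smooth muscle. Chrm2 had 9.21, 31.2, 26 and 28.3 CPM in Bern and 72, 93.1, 50.1 and 21.6 CPM in Crick colon neuronal nuclei. SI neuronal Chrm2 levels were 22.3, 30.5, 36 and 44.4 CPM in Bern and 35.9, 25.6, 37.6 and 22.7 CPM in Crick. Crick colon libraries 1 and 2 were the highest. Colon non-neuronal Chrm2 levels were 39.4, 23.4, 116 and 56.4 CPM in Bern and 81.9, 114, 28.4 and 20.3 CPM in Crick. SI non-neuronal Chrm2 levels were 209, 168, 201 and 225 CPM in Bern and 189, 140, 177 and 205 CPM in Crick. In SI every non-neuronal library was above every neuronal one, while in colon the sorts overlapped at both facilities. Chrm2 fell by 1.62 ± 0.24 (adjusted p = 7.67e-07), with -2.57 (adjusted p = 3.61e-07) within SI and -0.68 (adjusted p = 0.122) within colon. Chrm3 encodes the Gq-coupled M3 receptor that drives contraction. Chrm3 had 2.3, 7.55, 5.6 and 3.9 CPM in Bern and 7.3, 8.65, 11.2 and 5.19 CPM in Crick colon neuronal nuclei. SI neuronal Chrm3 levels were 8.29, 4.48, 3.1 and 3.8 CPM in Bern and 12.7, 11.7, 6.21 and 6.01 CPM in Crick. None exceeded 12.7 CPM. Colon non-neuronal Chrm3 levels were 9.24, 6.07, 34 and 22.1 CPM in Bern and 17.1, 27.9, 11.2 and 13.1 CPM in Crick. SI non-neuronal Chrm3 levels were 10.4, 5.97, 28.1 and 69.2 CPM in Bern and 15, 14, 11.3 and 24.1 CPM in Crick. The ranges met at 11.2 CPM in Crick colon and overlapped in the other 3 strata. Chrm3 fell by 1.58 ± 0.34 (adjusted p = 0.000233), with -0.96 (adjusted p = 0.144) within Crick. The 8 smooth muscle markers, all with counts in every group, summed to 417 to 1317 CPM in neuronal and 5508 to 22561 CPM in non-neuronal libraries, and the 7 fibroblast markers to 41.8 to 231 CPM and 710 to 1949 CPM in these sorts. Their part in the muscarinic and adrenergic results was not tested.

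**Figure D3:**
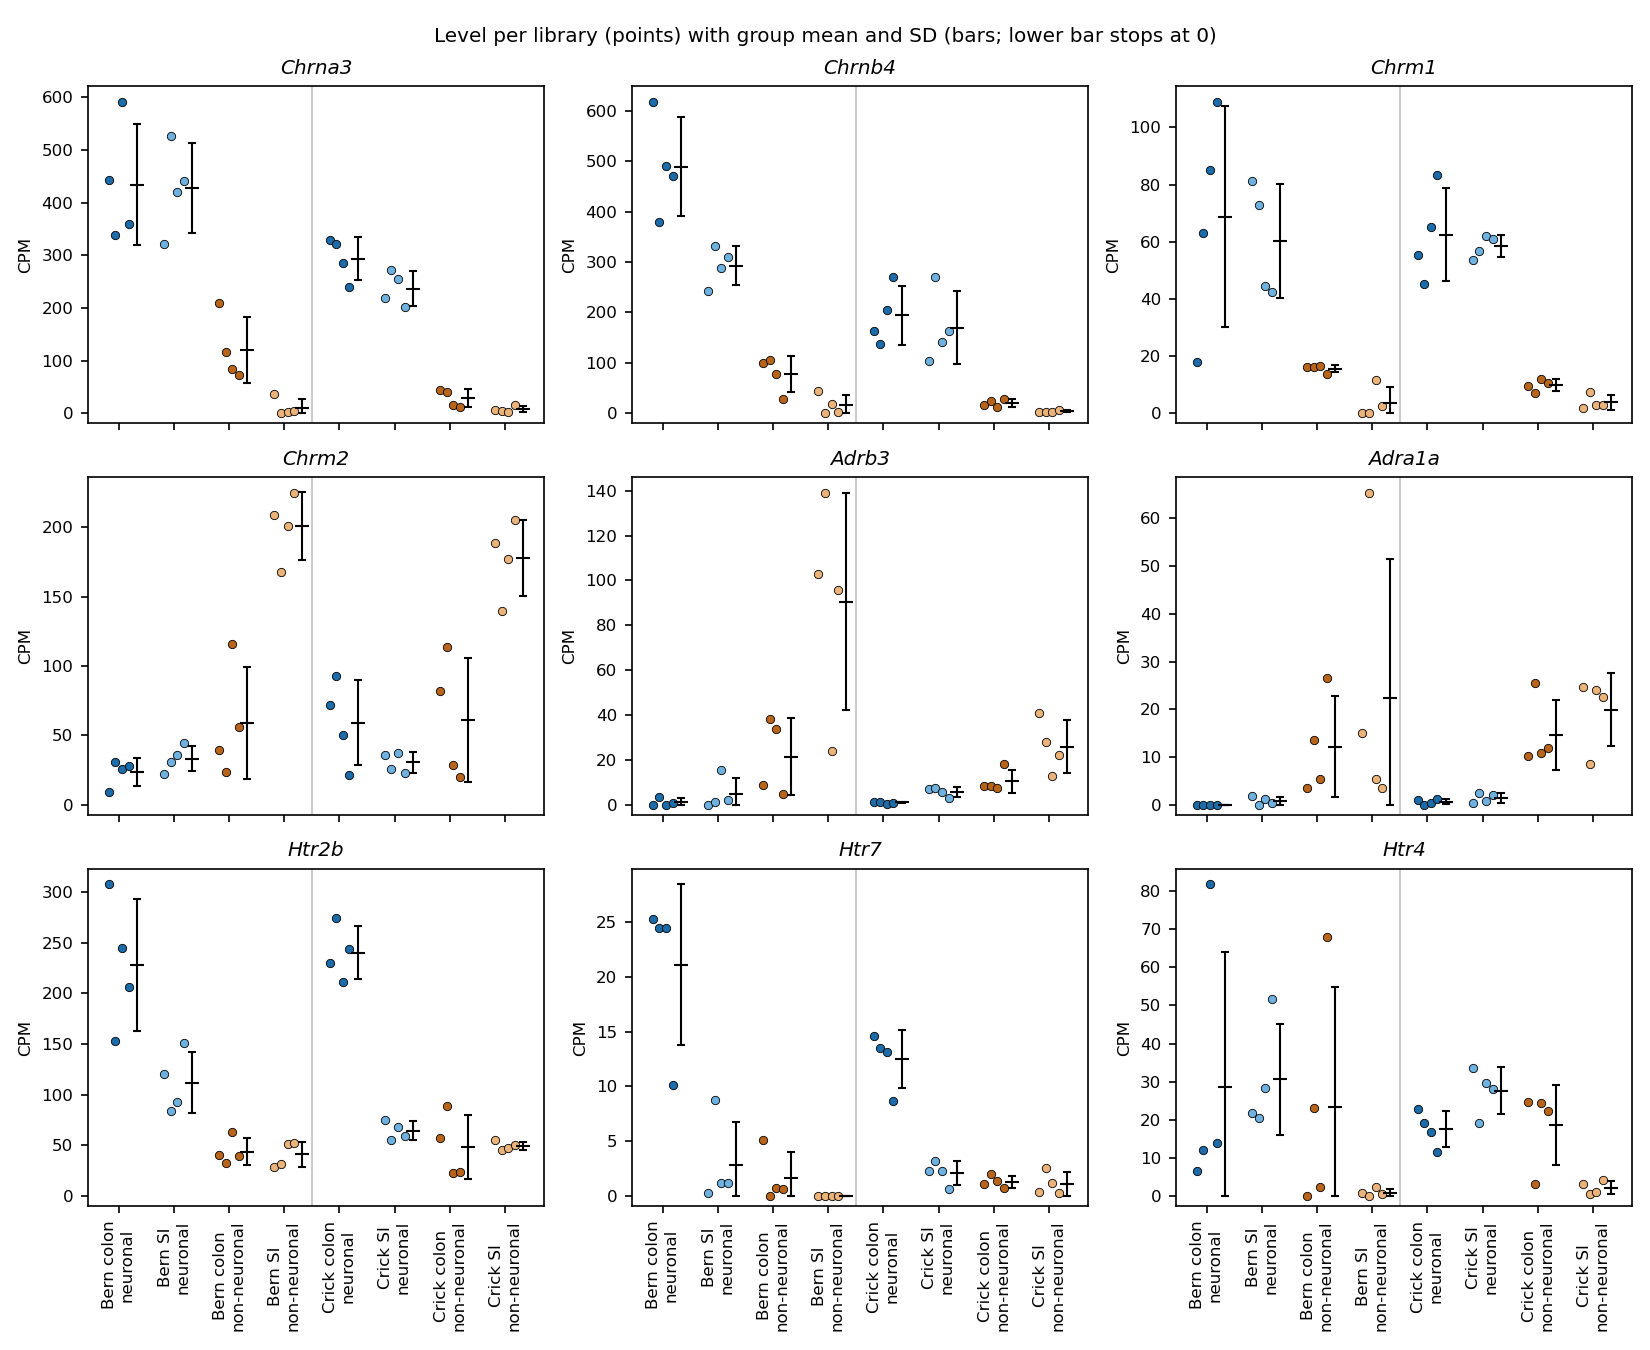
Level in CPM of 9 receptor genes in each of the 32 libraries (points), with group mean and SD (n = 4 each; the lower bar stops at 0). Chrna3, Chrnb4 and Chrm1 do not overlap between sorts within a facility and segment, Chrm2 is highest in SI non-neuronal nuclei, and Htr2b and Htr7 are highest in colon neuronal nuclei.

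Of the 14 serotonin receptor genes 11 were tested, and 7 rose and 0 fell. Htr4 encodes a Gs-coupled receptor that prokinetic drugs activate. Htr4 had 6.52, 12.2, 81.7 and 14 CPM in Bern and 22.8, 19.3, 16.8 and 11.5 CPM in Crick colon neuronal nuclei. SI neuronal Htr4 levels were 21.8, 20.5, 28.3 and 51.7 CPM in Bern and 33.6, 19.2, 29.7 and 28.2 CPM in Crick. Bern colon library 3 stood above all others. Colon non-neuronal Htr4 levels were 0, 23.2, 2.32 and 68 CPM in Bern and 24.7, 3.16, 24.3 and 22.4 CPM in Crick. SI non-neuronal Htr4 levels were 0.72, 0, 2.37 and 0.513 CPM in Bern and 3.26, 0.52, 1.02 and 4.33 CPM in Crick. The sorts did not overlap in SI at either facility and overlapped in colon at both. Htr4 rose by 2.19 ± 0.49 (adjusted p = 0.000303), with 4.28 (adjusted p = 2.63e-05) within SI and 0.10 (adjusted p = 0.935) within colon. The non-neuronal mean was 81.8% of the neuronal mean in Bern colon and 106% in Crick colon, against 2.94% in Bern SI and 8.23% in Crick SI.

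Htr7 encodes another Gs-coupled serotonin receptor. Htr7 had 25.3, 24.4, 24.4 and 10.1 CPM in Bern and 14.6, 13.5, 13.1 and 8.65 CPM in Crick colon neuronal nuclei. SI neuronal Htr7 levels were 0.259, 8.74, 1.16 and 1.17 CPM in Bern and 2.32, 3.18, 2.26 and 0.626 CPM in Crick. Colon was above SI at each facility. Colon non-neuronal Htr7 levels were 5.13, 0, 0.773 and 0.685 CPM in Bern and 1.11, 2.04, 1.43 and 0.708 CPM in Crick. SI non-neuronal Htr7 levels were 0, 0, 0 and 0 CPM in Bern and 0.384, 2.6, 1.23 and 0.27 CPM in Crick. The sorts overlapped for Htr7 in Crick SI alone. Htr7 rose by 3.64 ± 0.62 (adjusted p = 8.02e-06), a fitted value that includes a group at 0. Htr3a and Htr3b encode subunits of the serotonin-gated ion channel. Htr3b had 0, 12.9, 14 and 4.42 CPM in Bern and 4.47, 1.21, 7.25 and 3.6 CPM in Crick colon neuronal nuclei. SI neuronal Htr3b levels were 11.4, 10.7, 8.53 and 7.88 CPM in Bern and 5.33, 2.85, 4.33 and 2.13 CPM in Crick. Library 1 of Bern colon had no count. Colon non-neuronal Htr3b levels were 6.85, 13.2, 10.8 and 0 CPM in Bern and 1.78, 3.53, 0.204 and 1.06 CPM in Crick. SI non-neuronal Htr3b levels were 0, 0, 0 and 0 CPM in Bern and 3.65, 0.52, 1.02 and 1.08 CPM in Crick. The sorts were separate in Bern SI, where non-neuronal libraries had no count, and overlapped elsewhere. Htr3b rose by 2.75 ± 0.65 (adjusted p = 0.000645), with 0.67 (adjusted p = 0.545) within colon and 1.26 (adjusted p = 0.263) within Crick. Htr3a averaged 26.7 CPM in the neuronal and 10.2 CPM in the non-neuronal sort and rose by 1.81 ± 0.46 (adjusted p = 0.00123), with 0.75, adjusted p = 0.391 within colon and 1.53, adjusted p = 0.057 within Bern. Per exonic base, the median ratio of Htr3b to Htr3a was 0.113 to 0.241 in the 4 neuronal groups.

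Htr2b, a Gq-coupled receptor, averaged 161 CPM in the neuronal and 45.7 CPM in the non-neuronal sort and rose by 1.63 ± 0.18 (adjusted p = 2.03e-09). Its library values and its overlap with Psmd1 are given with the segments. Htr2c, also Gq-coupled, averaged 8.04 CPM and 1.84 CPM in these sorts and rose by 2.05 ± 0.61 (adjusted p = 0.00594), without passing within Bern (2.06, adjusted p = 0.062), Crick (2.04, adjusted p = 0.0715) or SI (1.27, adjusted p = 0.266). Htr5a averaged 3.91 CPM and 0.898 CPM and rose by 2.78 ± 0.81 (adjusted p = 0.00522), without passing within Crick (0.44, adjusted p = 0.824) or colon (2.33, adjusted p = 0.0787). In Bern colon neuronal nuclei library 1 held 89.4% of the Htr5a counts. Htr1b, Htr2a and Htr6 did not pass, the test of Htr1a gave no usable value because 2 groups on opposite sides of the contrast were at 0, and Htr1b, for one, averaged 7.02 CPM in the neuronal and 6.65 CPM in the non-neuronal sort. Htr6 passed without Bern colon non-neuronal library 1 (3.41, adjusted p = 0.00431) and without Crick SI non-neuronal library 4 (2.70, adjusted p = 0.0201). It also passed within SI (3.81, adjusted p = 0.039) but not within colon (0.06, adjusted p = 0.986). Bern SI non-neuronal nuclei had no Htr6 count.

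Of the 9 adrenergic receptor genes 7 were tested, and 4 fell and 2 rose. Adra1a, Adra2b, Adrb1 and Adrb3 fell, and for each of them the sorts did not overlap in any of the 4 strata. Adra1a encodes the Gq-coupled alpha1A receptor. Adra1a had 0, 0, 0 and 0 CPM in Bern and 0.941, 0, 0.468 and 1.15 CPM in Crick colon neuronal nuclei. SI neuronal Adra1a levels were 1.81, 0, 1.16 and 0.292 CPM in Bern and 0.463, 2.51, 0.752 and 2.13 CPM in Crick. Bern colon had no count. Colon non-neuronal Adra1a levels were 3.42, 13.6, 5.41 and 26.5 CPM in Bern and 10.2, 25.5, 10.8 and 11.9 CPM in Crick. SI non-neuronal Adra1a levels were 15.1, 65.3, 5.33 and 3.59 CPM in Bern and 24.6, 8.57, 24 and 22.6 CPM in Crick. Bern SI library 2 was the highest. Adra1a fell by 5.43 ± 0.61 (adjusted p = 3.73e-09), a fitted value that includes a group at 0. Adra2b encodes the Gi-coupled alpha2B receptor. Adra2b had 0, 0, 0.255 and 0 CPM in Bern and 0.235, 0.603, 0.702 and 1.44 CPM in Crick colon neuronal nuclei. SI neuronal Adra2b levels were 2.59, 0.426, 1.55 and 0 CPM in Bern and 1.16, 1.67, 1.69 and 2.51 CPM in Crick. None exceeded 2.59 CPM. Colon non-neuronal Adra2b levels were 19.9, 2.72, 3.09 and 18.9 CPM in Bern and 6.23, 7.25, 3.07 and 7.08 CPM in Crick. SI non-neuronal Adra2b levels were 26.3, 20.3, 12.7 and 21.5 CPM in Bern and 11.7, 14.8, 14.3 and 29.9 CPM in Crick. The lowest of these was 2.72 CPM. Adra2b fell by 4.30 ± 0.50 (adjusted p = 3.6e-09).

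Adrb1 and Adrb3 encode the Gs-coupled beta1 and beta3 receptors. Adrb1 had 0, 0, 0 and 0.26 CPM in Bern and 0.235, 0, 0 and 0.288 CPM in Crick colon neuronal nuclei. SI neuronal Adrb1 levels were 0, 0, 0 and 0 CPM in Bern and 2.32, 0.502, 1.69 and 0.877 CPM in Crick. Bern SI had no count. Colon non-neuronal Adrb1 levels were 1.37, 1.67, 2.32 and 4.57 CPM in Bern and 4.45, 8.36, 1.43 and 13.6 CPM in Crick. SI non-neuronal Adrb1 levels were 0.36, 92.7, 5.92 and 0.513 CPM in Bern and 7.87, 3.38, 3.28 and 7.16 CPM in Crick. Bern SI library 2 held 91.0% of the Adrb1 counts of its group. Adrb1 fell by 5.49 ± 0.75 (adjusted p = 1.85e-07), a fitted value that includes a group at 0. Adrb3 had 0, 3.66, 0 and 0.78 CPM in Bern and 1.18, 1.41, 0.468 and 1.01 CPM in Crick colon neuronal nuclei. SI neuronal Adrb3 levels were 0, 1.28, 15.5 and 2.34 CPM in Bern and 6.95, 7.7, 5.64 and 2.88 CPM in Crick. Bern SI library 3 was the highest. Colon non-neuronal Adrb3 levels were 8.9, 38.3, 34 and 4.79 CPM in Bern and 8.46, 8.18, 7.36 and 18.1 CPM in Crick. SI non-neuronal Adrb3 levels were 103, 139, 24 and 95.7 CPM in Bern and 40.9, 27.8, 12.9 and 22 CPM in Crick. Bern SI libraries 1, 2 and 4 were the highest of all. Adrb3 fell by 3.49 ± 0.48 (adjusted p = 1.54e-07). The antisense gene Gm45470 covers 839 bases (24.9%) of the Adrb3 exons, and reads of the pair cannot be told apart there. Gm45470 fell too (-2.90, adjusted p = 1.76e-06).

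The adrenergic genes that rose encode Gi-coupled alpha2 receptors, which restrain transmitter release from nerve endings. Adra2a had 1.15, 32.4, 8.4 and 20.3 CPM in Bern and 13.9, 17.9, 10.5 and 22.3 CPM in Crick colon neuronal nuclei. SI neuronal Adra2a levels were 9.33, 4.05, 18.6 and 14.3 CPM in Bern and 12.5, 10.7, 10.5 and 20.4 CPM in Crick. Bern colon spanned the widest range. Colon non-neuronal Adra2a levels were 21.9, 73.2, 3.09 and 6.39 CPM in Bern and 8.24, 4.09, 2.04 and 2.95 CPM in Crick. SI non-neuronal Adra2a levels were 0, 1.19, 0 and 2.56 CPM in Bern and 4.41, 1.04, 0.615 and 1.35 CPM in Crick. The sorts overlapped in Bern colon alone, where non-neuronal library 2 was the highest. Adra2a rose by 1.89 ± 0.47 (adjusted p = 0.00121), with 0.58, adjusted p = 0.532 within colon and 1.40, adjusted p = 0.0976 within Bern. Adra2c averaged 4.74 CPM in the neuronal and 0.287 CPM in the non-neuronal sort and rose by 4.24 ± 0.83 (adjusted p = 6.86e-05). It was 2.71 (adjusted p = 0.0453) within Crick. Bern SI neuronal library 3 was the sole library of its group with Adra2c counts, and without it both Bern SI groups were at 0, so that the test over all strata gave no usable value (2.68, adjusted p = 1).

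Of the 4 histamine receptor genes 3 were tested and 1 rose. Hrh3, a presynaptic Gi-coupled receptor, averaged 4.59 CPM in the neuronal and 0.688 CPM in the non-neuronal sort and rose by 3.61 ± 0.79 (adjusted p = 0.000303), without passing within Crick (1.18, adjusted p = 0.413) or colon (2.37, adjusted p = 0.0633). Hrh1 and Hrh2 did not pass. Without Bern colon neuronal library 1, which held all 101 Hrh2 counts of its group, Hrh2 was lower in neuronal nuclei (-3.53, adjusted p = 0.000784), and without Bern colon neuronal library 3 so was Hrh1 (-2.19, adjusted p = 0.0429). With the block by same-numbered libraries Hrh2 was lower as well (-3.16, adjusted p = 0.0183), and so it was within Crick (-3.91, adjusted p = 0.0134). Within Bern Hrh2 was at 1.07 (adjusted p = 0.473).

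Several of these genes are neighbours in the genome (GRCm38). Chrna5 (chr9:54980880-55007779, plus strand), Chrna3 (chr9:55010111-55026562, minus strand) and Chrnb4 (chr9:55028154-55048779, minus strand) are 2.3 and 1.6 kb apart, and all 3 rose in neuronal nuclei. Htr3a and Htr3b lie 23.9 kb apart on chromosome 9, and both rose. Adrb3 and Chrnb3 lie 118.1 kb apart on chromosome 8, where Adrb3 fell and Chrnb3 did not pass. Promoter windows from 250 bases before to 50 after the start were at hand from RefSeq (GRCm38.p6) for 40 of the 53 genes, in 49 windows. A GC box (GGGCGG on either strand) was in 57.1% of them and in 35.7% of all 32851 windows, an E box (CANNTG) in 57.1% and 72.3%, and TATAAA on either strand in 4.08% and 13.6%. To show genes from both sides of the sort comparison, the windows of Chrna3 (chr9:55026513-55026812, minus strand) and Chrnb4 (chr9:55048495-55048794, minus strand), which rose, and of Chrm2 (chr6:36387834-36388133, plus strand) and Adra2b (chr2:127362929-127363228, plus strand), which fell, are printed 5′ to 3′ with GC boxes in capitals.
Chrna3: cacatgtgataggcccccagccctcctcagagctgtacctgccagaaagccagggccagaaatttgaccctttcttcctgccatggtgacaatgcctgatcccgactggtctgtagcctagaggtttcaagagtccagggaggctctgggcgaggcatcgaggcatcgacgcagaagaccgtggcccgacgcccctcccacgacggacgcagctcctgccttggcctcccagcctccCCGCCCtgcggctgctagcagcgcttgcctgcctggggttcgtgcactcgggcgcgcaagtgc
Chrnb4: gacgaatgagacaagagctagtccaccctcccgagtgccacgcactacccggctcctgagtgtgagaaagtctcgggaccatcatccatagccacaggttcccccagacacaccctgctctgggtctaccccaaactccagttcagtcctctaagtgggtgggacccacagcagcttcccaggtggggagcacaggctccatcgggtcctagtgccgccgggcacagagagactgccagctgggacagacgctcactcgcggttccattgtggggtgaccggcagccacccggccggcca
Chrm2: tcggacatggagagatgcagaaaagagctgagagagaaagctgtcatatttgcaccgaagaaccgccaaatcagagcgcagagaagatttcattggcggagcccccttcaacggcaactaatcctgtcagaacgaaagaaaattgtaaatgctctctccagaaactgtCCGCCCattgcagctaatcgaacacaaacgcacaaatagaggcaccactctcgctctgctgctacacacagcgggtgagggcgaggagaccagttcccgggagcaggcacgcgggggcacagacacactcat
Adra2b: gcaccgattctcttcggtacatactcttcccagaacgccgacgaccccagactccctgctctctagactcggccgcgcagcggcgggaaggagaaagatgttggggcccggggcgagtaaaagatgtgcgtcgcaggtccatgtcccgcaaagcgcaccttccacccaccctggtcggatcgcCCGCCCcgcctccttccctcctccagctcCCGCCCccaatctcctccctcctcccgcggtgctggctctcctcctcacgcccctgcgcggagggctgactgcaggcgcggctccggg
GC boxes numbered 1 in Chrna3, 0 in Chrnb4, 1 in Chrm2 and 2 in Adra2b. E boxes numbered 3, 2, 0 and 0 in the same genes, and TATAAA was in none of the 4 windows. Of the E boxes of Chrna3 a pair overlaps at the start of the window, no other counted motifs overlap, and a match describes letters, not a bound site.

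The second comparison set colon against SI within neuronal nuclei. Htr2b and Htr7 were higher in colon and Chrna2 was lower, and the other receptor genes tested did not pass. Thus 2 rose and 1 fell of 26 tested, which is 11.5%, against a background of 5.51% of all 17419 genes tested (1.97% higher, 3.54% lower). The median log2 fold change, colon over SI, was 0.06 for the receptor genes and -0.01 for all genes. Htr2b had 308, 153, 245 and 206 CPM in Bern and 230, 274, 211 and 244 CPM in Crick colon neuronal nuclei. SI neuronal Htr2b levels were 120, 84, 93 and 151 CPM in Bern and 75.3, 55.2, 68.6 and 58.9 CPM in Crick. At each facility all 4 colon libraries lay above all 4 SI libraries. Colon non-neuronal Htr2b levels were 40.4, 32.6, 62.8 and 40 CPM in Bern and 57.2, 88.8, 22.9 and 23.7 CPM in Crick. SI non-neuronal Htr2b levels were 28.5, 32.2, 51.5 and 52.6 CPM in Bern and 55.3, 45.2, 47.5 and 50 CPM in Crick. Non-neuronal libraries overlapped between segments. Htr2b averaged 234 CPM in colon and 88.3 CPM in SI neuronal nuclei and rose by 1.41 ± 0.19 (adjusted p = 5.8e-05), with 0.97 (adjusted p = 0.0438) within Bern and 1.85 (adjusted p = 0.000659) within Crick. The Htr2b exons lie wholly within Psmd1, a proteasome subunit gene on the opposite strand, and share 252 exonic bases (11.8%) with it. The labels do not say that counting used strand, so reads of the pair cannot be told apart on the shared bases. The part of Psmd1 in the Htr2b levels was not tested. Psmd1 had group means of 56.9 to 114 CPM and a log2 fold change of 0.16, adjusted p = 0.719.

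Htr7 averaged 16.8 CPM in colon and 2.46 CPM in SI neuronal nuclei, without overlap at either facility, and rose by 2.66 ± 0.57 (adjusted p = 0.00595). Within Bern it was 2.80 (adjusted p = 0.0519) and within Crick 2.52 (adjusted p = 0.209), neither of which passed alone. Chrna2 encodes the nicotinic alpha2 subunit. Chrna2 had 0, 1.22, 0 and 0.26 CPM in Bern and 0.706, 0.201, 0.468 and 0 CPM in Crick colon neuronal nuclei. SI neuronal Chrna2 levels were 5.7, 4.26, 9.3 and 14.3 CPM in Bern and 1.39, 10.4, 2.26 and 6.14 CPM in Crick. At each facility every SI library lay above every colon library. Colon non-neuronal Chrna2 levels were 1.71, 0, 0 and 0 CPM in Bern and 1.34, 0.558, 0.613 and 0.472 CPM in Crick. SI non-neuronal Chrna2 levels were 3.24, 0, 0 and 0 CPM in Bern and 0.96, 1.3, 1.43 and 4.06 CPM in Crick. Chrna2 averaged 0.357 CPM in colon and 6.72 CPM in SI neuronal nuclei and fell by 4.15 ± 0.83 (adjusted p = 0.00319), with -4.39 (adjusted p = 0.0379) within Bern and -3.91 (adjusted p = 0.147) within Crick. Chrna3 averaged 364 CPM in colon and 332 CPM in SI (0.12 ± 0.17, adjusted p = 0.784), and Htr4 23.1 CPM and 29.1 CPM (-0.42 ± 0.42, adjusted p = 0.649). Without Bern colon library 3, at 81.7 CPM, Htr4 was at -1.11 (adjusted p = 0.0506). Without Bern SI library 1, Htr2a (3.55, adjusted p = 0.0248) and Htr1f (-3.82, adjusted p = 0.042) passed as well. Adrb3 did so without Bern colon library 2 (-3.27, adjusted p = 0.0439), Adra2c without Bern SI library 3 (4.83, adjusted p = 0.00762) and Htr1f without Bern SI library 4 (-3.81, adjusted p = 0.0472). Bern SI library 3 was the sole library of its group with Adra2c counts, so without it the Adra2c value includes a group at 0. Within Crick Adra2c was at 0.99 and did not pass.

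**Figure D4:**
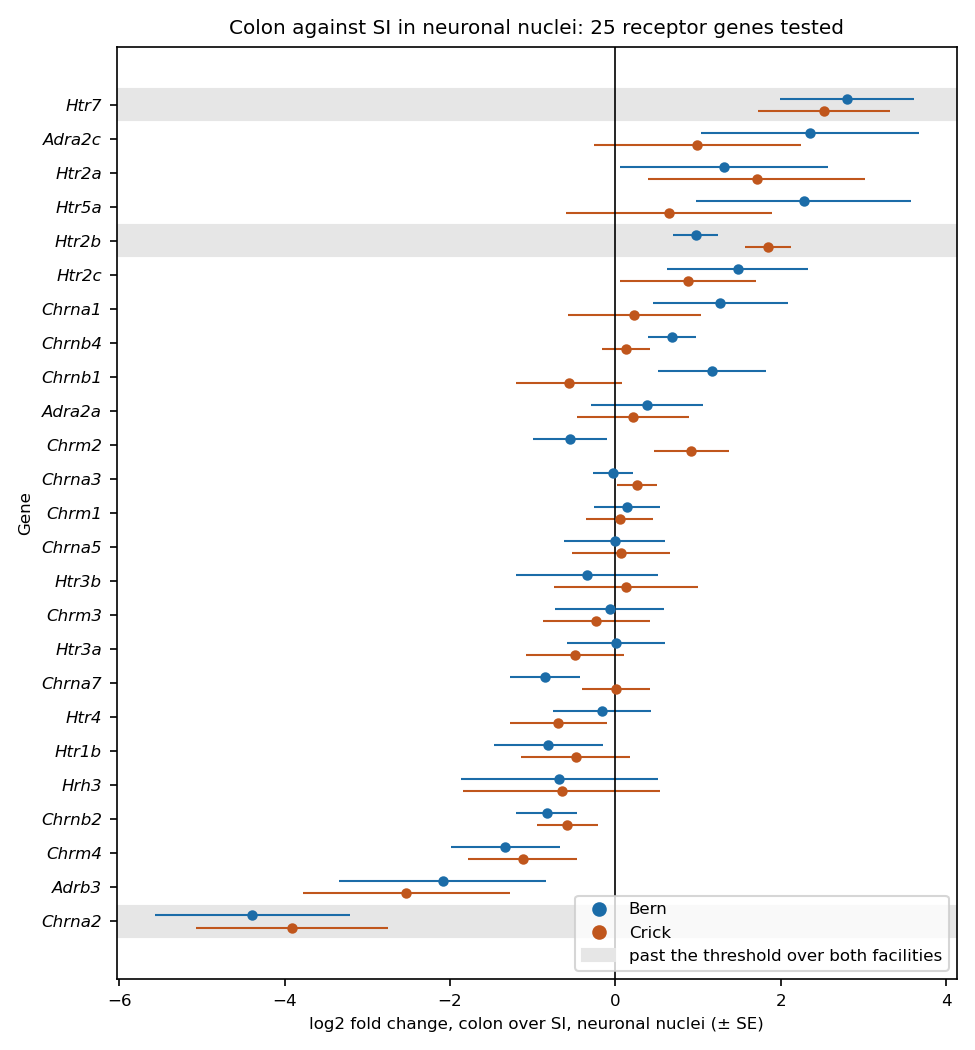
Log2 fold change of colon over SI in neuronal nuclei ± SE for 25 of the 26 receptor genes tested, separately within Bern and within Crick. Htr7 and Htr2b lie above 0 and Chrna2 below 0 at both facilities, and Chrna3 lies close to 0 at both.

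Markers of other cells differed between these segments as well. The 4 markers of interstitial cells of Cajal, Kit, Ano1, Prkcq and Etv1, summed to 264 to 470 CPM in colon and 661 to 2325 CPM in SI neuronal libraries, and the 13 mitochondrially encoded genes to 688 to 1335 CPM in colon and 2456 to 21947 CPM in SI. The median sum of the 4 markers of interstitial cells of Cajal was 821 CPM in Bern and 1437 CPM in Crick SI neuronal libraries. In SI non-neuronal libraries it was lower, at 342 CPM and 289 CPM. In colon it was 393 CPM and 316 CPM in neuronal and 406 CPM and 401 CPM in non-neuronal libraries. All of these marker and mitochondrial genes had counts in every group, and their part in the sort and segment results of the receptor genes was not tested.

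The third comparison set colon against SI within non-neuronal nuclei. Chrna3, Htr4 and 5 other receptor genes were higher in colon, and Chrm2 and Adrb3 were lower. Of 28 receptor genes tested 7 rose and 2 fell, which is 32.1%, against a background of 9.32% of all 19164 genes tested (5.79% higher, 3.54% lower). The median log2 fold change was 0.85 for the receptor genes and 0.02 for all genes. Those that rose were Htr3b (4.05 ± 1.16, 0.0332), Htr4 (3.75 ± 0.94, 0.0143), Chrna7 (3.19 ± 0.75, 0.00992), Adra2a (2.87 ± 0.86, 0.0367), Chrna3 (2.64 ± 0.58, 0.00629), Chrnb2 (2.60 ± 0.70, 0.0209) and Chrnb4 (2.23 ± 0.54, 0.0121), each with its log2 fold change ± SE and adjusted p. All 7 were also higher in the neuronal sort. Htr2b, Chrm1, Chrm4, Chrna5 and Htr3a, higher there too, did not pass here. With all 32 libraries in 1 fit Chrm1 (1.74, adjusted p = 0.0152), Chrna5 (3.62, adjusted p = 0.0207) and Htr3a (1.94, adjusted p = 0.0427) passed. Htr2b and Chrm4 still did not, and Adrb3 no longer passed (-1.68, adjusted p = 0.0645). The fitted value of Htr3b includes a group at 0, Bern SI, and was 2.54 with that group set to the floor. Within Bern Htr3b was at 8.09 ± 1.97 and within Crick at 0.01 ± 1.26, where it did not pass. The SE within Crick leaves a difference in either direction possible. Chrna7 did not overlap between segments at either facility, Chrna3, Chrnb2 and Adra2a did not overlap in Bern, and Chrnb4 did not in Crick. Chrna3 averaged 74.5 CPM in colon and 9.20 CPM in SI, and Htr4 21 CPM and 1.59 CPM.

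The neuronal marker sum differed along with these genes. Its mean in non-neuronal nuclei was 25% of the neuronal mean in Bern colon, 9.82% in Crick colon, 4.92% in Bern SI and 4.06% in Crick SI. For Chrna3 this share was 27.6% in Bern colon, 9.73% in Crick colon, 2.52% in Bern SI and 3.22% in Crick SI. The shares of Chrna3 were thus close to those of the marker sum in colon. For Chrnb4 the colon share was 15.9% in Bern and 10.5% in Crick, for Chrna7 55% and 24.1%, and for Adra2a 167% and 26.7%. Library 2 held 77.1% of the Adra2a counts of Bern colon non-neuronal nuclei. Htr3b had a share of 98.5% in Bern colon, and its neuronal level in Crick colon was too low for a share. For Chrnb2 the share was 154% in Bern colon, 57.9% in Crick colon, 3.71% in Bern SI and 24.3% in Crick SI, and that of Htr4 is given above. The Bern colon shares of Chrnb2 and Htr4 rest on single libraries. The share of Chrnb2 there was 47.3% without non-neuronal library 2, with the marker sum at 22.8%. That of Htr4 was 29.7% without non-neuronal library 4, close to the marker sum at 27.7%, and 214% without neuronal library 3. In Crick colon, Chrnb2 and Htr4 were above the share of the marker sum whichever library was left out. The part of neuronal nuclei in the non-neuronal sort in these results was not tested.

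Within Crick edgeR called 0 of 28 receptor genes for this comparison, with 6 at an unadjusted p under 0.05 (4 higher, 2 lower). Of all 19164 genes tested 49 were called there, so few calls were to be had for any genes. Over both facilities DESeq2 called 11 receptor genes and 3190 of all genes. Without the 6 libraries set apart edgeR called 4 receptor genes and 764 of all genes. The call of Adra2a ended without any of 6 libraries (Bern colon non-neuronal 2, Crick colon non-neuronal 1 and 2, Crick SI non-neuronal 2, 3 and 4; adjusted p of 0.0559 to 0.119). That of Chrnb2 ended without any of 3 (Bern colon non-neuronal 2, Crick SI non-neuronal 1 and 3; 0.0501 to 0.111), and that of Htr3b without any of 6 (Bern colon non-neuronal 2, Crick colon non-neuronal 1 and 2, Crick SI non-neuronal 2, 3 and 4; 0.0511 to 0.0705).

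**Figure D5:**
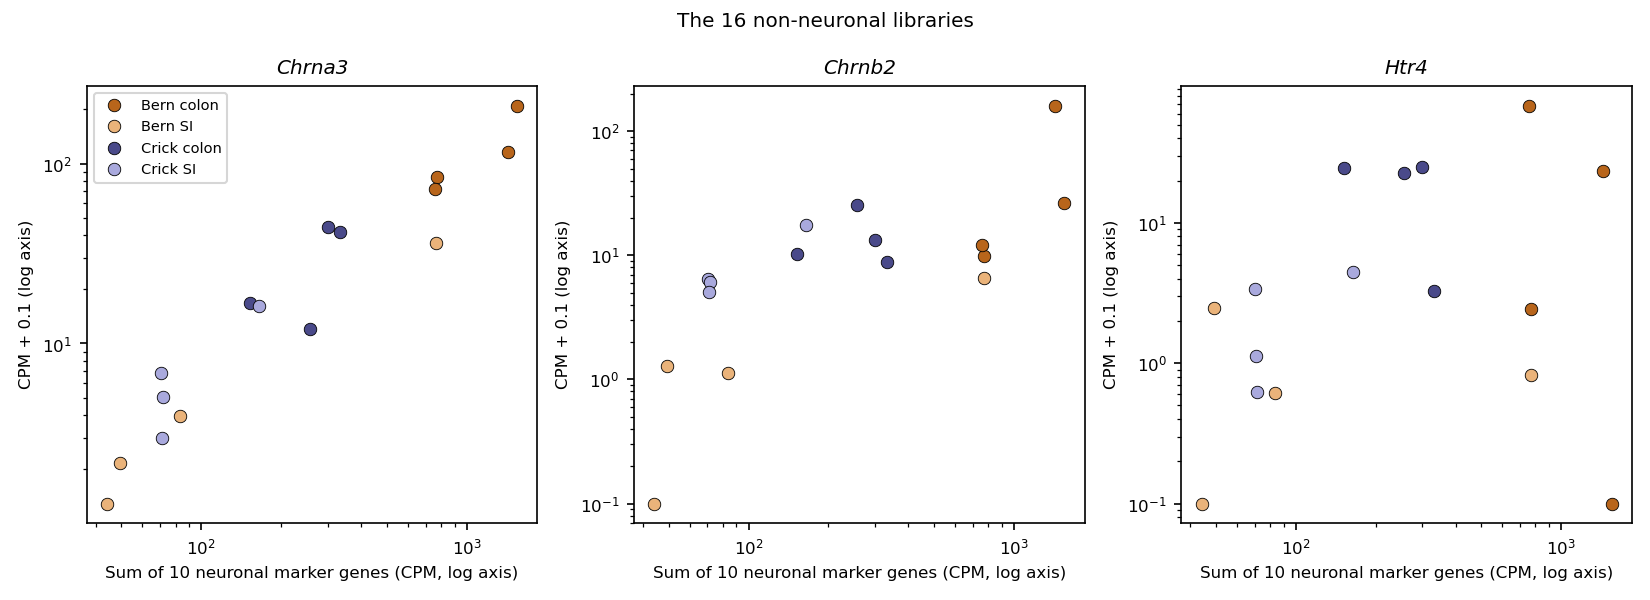
Level of Chrna3, Chrnb2 and Htr4 (CPM + 0.1, log axis) against the summed level of 10 neuronal marker genes (CPM, log axis) in the 16 non-neuronal libraries. Bern colon libraries and Bern SI library 1 lie farthest to the right, and Htr4 in Crick colon reached 24.7 CPM at marker sums of at most 333 CPM.

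Chrm2 averaged 60.1 CPM in colon and 189 CPM in SI non-neuronal nuclei, without overlap at either facility, and fell by 1.74 ± 0.35 (adjusted p = 0.00314). Within Bern it was -1.90 (adjusted p = 0.0199) and within Crick -1.58 (adjusted p = 0.302), and without the 6 libraries set apart it no longer passed (-1.37, adjusted p = 0.0606). The long noncoding gene 9330158H04Rik shares 142 bases (2.3%) with the Chrm2 exons on the opposite strand and fell as well (-2.28, adjusted p = 0.000949). Adrb3 averaged 16 CPM in colon and 58.2 CPM in SI and fell by 1.77 ± 0.46 (adjusted p = 0.0182), a call that ended without either of 2 libraries (Crick colon non-neuronal 1, Crick SI non-neuronal 1; adjusted p of 0.0507 and 0.0509). Its antisense partner Gm45470 fell too (-2.06, adjusted p = 0.00267). Smooth muscle markers summed to 5508 to 16597 CPM in colon and 6513 to 22561 CPM in SI non-neuronal libraries, and the 7 epithelial markers to 1511 to 12378 CPM and 140 to 993 CPM in these segments. Their part in the Chrm2 and Adrb3 results, and in those of the genes higher in colon, was not tested.

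Whether the segment difference itself differed between sorts was tested as an interaction, the log2 difference of colon over SI in neuronal nuclei less that in non-neuronal nuclei. Of 35 receptor genes 8 passed, which is 22.9%, against a background of 6.48% of all 21521 genes tested (1.09% higher, 5.39% lower). The median was -1.59 for the receptor genes, -1.17 with the 12 genes that have a group at 0 set to the floor, and -0.22 for all genes. The 6 negative ones were Htr4 (-4.18 ± 0.97, 0.00706), Htr3b (-4.16 ± 1.27, 0.0425), Chrna7 (-3.65 ± 0.68, 0.000852), Chrnb2 (-3.31 ± 0.72, 0.00403), Chrna3 (-2.52 ± 0.58, 0.00641) and Chrnb4 (-1.82 ± 0.53, 0.0326). For these, colon over SI was higher in non-neuronal than in neuronal nuclei. The Htr3b value includes a group at 0 and was -2.6 with that group set to the floor. The positive ones were Chrm2 (1.89 ± 0.48, 0.0134) and Htr2b (1.43 ± 0.36, 0.0123). Chrm2 averaged 41.4 CPM in colon and 31.9 CPM in SI neuronal nuclei, against 60.1 CPM and 189 CPM in the non-neuronal sort, and Htr2b in non-neuronal nuclei 46.1 CPM in colon and 45.3 CPM in SI.

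Neither positive call passed within Bern (Chrm2 1.28, adjusted p = 0.25, and Htr2b 0.93, adjusted p = 0.266), nor did that of Chrnb4 (-1.45, adjusted p = 0.236). Both positive calls ended without the 6 libraries set apart (Chrm2 1.46, adjusted p = 0.107, and Htr2b 1.22, adjusted p = 0.0664). That of Chrnb4 ended without any of 5 libraries (Bern colon non-neuronal 2, Crick colon non-neuronal 4, Crick colon neuronal 1 and 2, Crick SI neuronal 2; adjusted p of 0.0503 to 0.0556), and that of Htr3b without any of 21 (Bern colon non-neuronal 2 and 3, Bern colon neuronal 4, Bern SI non-neuronal 2, 3 and 4, Bern SI neuronal 1, 2, 3 and 4, Crick colon non-neuronal 1 and 2, Crick colon neuronal 1, 2 and 4, Crick SI non-neuronal 2, 3 and 4, Crick SI neuronal 1, 2 and 3; 0.0505 to 0.0734). Within Crick edgeR called 0 of 35, with 5 at an unadjusted p under 0.05 (2 higher, 3 lower), and DESeq2 over both facilities called 9. Counts of all genes called in these settings are given below. When each neuronal library was set against the same-numbered non-neuronal library of its facility and segment, a block chosen after seeing the data, Htr4 (-3.87, adjusted p = 0.0541) and Htr3b (-4.11, adjusted p = 0.148) no longer passed.

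The last comparisons set Bern against Crick. In neuronal nuclei 2 of 26 receptor genes passed, both higher in Bern, which is 7.69%, against a background of 7.72% of all 17419 genes tested (4.96% higher, 2.76% lower), a share close to that of all genes. The median log2 fold change was 0.38 for the receptor genes and 0.01 for all genes. Chrnb4 averaged 391 CPM in Bern and 182 CPM in Crick and rose by 1.05 ± 0.21 (adjusted p = 0.00326), and Chrna3 averaged 431 CPM and 265 CPM and rose by 0.69 ± 0.17 (adjusted p = 0.0159). Chrna3 did not overlap between facilities in either segment, and Chrnb4 overlapped in SI. Chrnb4 was 1.33 (adjusted p = 0.0208) within colon and 0.77 (adjusted p = 0.279) within SI, and Chrna3 0.54 (adjusted p = 0.206) and 0.84 (adjusted p = 0.133). With all 32 libraries in 1 fit edgeR called 0 of 35, with 6 at an unadjusted p under 0.05 (Chrnb4 1.06, adjusted p = 0.0868, and Chrna3 0.71, adjusted p = 0.322). The neuronal marker sum was 3747 to 4998 CPM in Bern and 2049 to 2864 CPM in Crick neuronal libraries, and its part in these calls was not tested. Htr4 averaged 29.6 CPM in Bern and 22.7 CPM in Crick and did not pass (0.41 ± 0.42, adjusted p = 0.593).

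In non-neuronal nuclei 1 receptor gene rose and 3 fell of 28, which is 14.3%, against a background of 9.29% of all 19164 genes tested (4.35% higher, 4.94% lower). The median log2 fold change was 0.03 for the receptor genes and -0.06 for all genes. Chrnb4 averaged 47.4 CPM in Bern and 12.1 CPM in Crick and rose by 2.04 ± 0.54 (adjusted p = 0.0197), but did not pass within colon (1.91, adjusted p = 0.256), within SI (2.17, adjusted p = 0.0958) or without the 6 libraries set apart (1.07, adjusted p = 0.35). Chrnb3, a beta3 subunit gene, had no count in the 8 Bern libraries, where the floor is 0.188 CPM in colon and 0.239 CPM in SI, against 6.01, 3.16, 2.66 and 13 CPM in Crick colon and 2.11, 3.38, 1.84 and 0.676 CPM in Crick SI (adjusted p = 0.00158). Chrna4, an alpha4 subunit gene, averaged 0.135 CPM in Bern and 2.75 CPM in Crick (0.00571), and Chrm4 0.198 CPM and 3.48 CPM (0.019), and for all 3 the facilities did not overlap in either segment. Neither passed within a single segment, with Chrna4 at -6.22, adjusted p = 0.0684 within colon and -3.60, adjusted p = 0.111 within SI, and Chrm4 at -3.68, adjusted p = 0.243 and -4.58, adjusted p = 0.0966. Without the 6 libraries set apart Chrm4 no longer passed (-3.50, adjusted p = 0.122). Over the whole count table, genes with a count numbered 15641 to 20912 per library in Bern and 27267 to 34994 in Crick non-neuronal nuclei. The part of this gap in the calls of Chrnb3, Chrna4 and Chrm4, all near 0 in Bern, was not tested.

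Genes that make, move and clear these transmitters or act downstream of the receptors were counted from 3 lists. Of 13 genes of acetylcholine handling and nicotinic receptor assembly, 12 were tested between sorts, and 8 rose and 3 fell in neuronal nuclei (median log2 fold change 1.48), which is 91.7% against the 43.5% of all genes. Chat, which makes acetylcholine, averaged 158 CPM in the neuronal and 15.7 CPM in the non-neuronal sort and rose by 4.14 (adjusted p = 8.78e-11). The choline transporter Slc5a7 rose by 3.83, the vesicular transporter Slc18a3 by 3.55 and Ache, which breaks acetylcholine down, by 3.14. The nicotinic receptor chaperones Ric3 (1.47, adjusted p = 6.95e-05) and Tmem35a (1.49, adjusted p = 0.0341) rose too. Of 18 genes of monoamine handling 13 were tested, and 3 rose and 8 fell (median -1.03), or 84.6%. The vesicular monoamine transporter Slc18a2 rose by 1.25, while the degrading enzymes Maoa and Maob fell by 1.03 and 2.77, and the synthetic enzyme Ddc fell by 2.89. The serotonin transporter Slc6a4 averaged 1.80 CPM in the neuronal and 1.65 CPM in the non-neuronal sort and did not pass (0.86, adjusted p = 0.314). Of 19 genes of G-protein signalling 7 rose and 3 fell (median 0.29), or 52.6%, a share near that of all genes.

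Between segments of neuronal nuclei, 0 genes of the acetylcholine list rose and 2 fell of 11 tested: Slc5a7 (-0.66, adjusted p = 0.049) and the cholinesterase gene Bche (-1.67, adjusted p = 0.0239). Of 9 monoamine genes tested 0 rose and 0 fell, and of 18 G-protein genes 1 fell, Plcb4, a phospholipase C gene (-1.06, adjusted p = 0.00656). These shares are 18.2%, 0% and 5.56%, against 5.51% of all genes, and that of the G-protein list is near the background.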

How the data were processed

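Nuclear RNA of 32 libraries was measured by sequencing of cDNA amplified with the NuGEN Ovation V2 kit, per the labels' protocols. Expected counts for each gene came in 1 table deposited by the authors, and the submitters' processing notes name RSEM 1.3.0, STAR 2.5.2, DESeq2 1.10.1 and the build GRCm38 without giving their roles. Of the values 10.8% were not whole, and all were rounded to whole numbers before testing.

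Gene IDs were matched to GENCODE release M21 (51719 matched, 193 did not) for biotype, exonic length and position, and promoter windows and their sequences came from RefSeq. Genes passing edgeR's own low-count filter were scaled by TMM and tested by quasi-likelihood F tests on contrasts of group means (edgeR 4.0.16, R 4.3.3). P-values were adjusted by Benjamini-Hochberg over every gene tested, with calls at an adjusted p under 0.05. Sort and the interaction used all 32 libraries, and segment and facility were tested within each sort (16 libraries). SE values were taken as the absolute log2 fold change over the root of F. DESeq2 1.42.0, other size factors, no filter, replicate blocks (1 of them, within facility and segment, chosen after seeing the data), subsets by facility or segment and leaving out libraries were alternatives. The fit was tested on simulated data.

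Genes given by library are Chrna3, Htr4 and, in each comparison, up to 8 called genes a direction with the largest fold change and at least 5 CPM on the higher side; Chrnb3 and the values quoted for genes with 1 dominant library were added after their values were seen. The members and gene lists were chosen with earlier results of these data known. Some results are not reported here.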

Additional observations from a re-analysis of the deposited data

Results flagged for a closer look

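Of 106 combinations of a named gene and a group of 4 libraries, 12 had a highest or lowest library far from the other 3 by a Dixon test. Its chance rate of about 5% holds for normally distributed values, which CPM need not be, so no excess over chance is read from this. In neuronal nuclei these were Htr4 in Bern colon 3 (81.7 CPM, highest) and Htr7 in Bern colon 4 (10.1 CPM, lowest). In Bern non-neuronal nuclei they were Chrnb2 in colon 2 (160 CPM, highest), Chrm1 in colon 4 (13.7 CPM, lowest), Adrb1 in SI 2 (92.7 CPM, highest) and Chrna3 in SI 1 (36.0 CPM, highest). In Crick non-neuronal nuclei they were Adra1a in colon 2 (25.5 CPM, highest) and SI 2 (8.57 CPM, lowest), Adra2b in SI 4 (29.9 CPM, highest), Adrb3 in colon 4 (18.1 CPM, highest), Chrnb2 in SI 4 (17.4 CPM, highest) and Htr4 in colon 2 (3.16 CPM, lowest).

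The segment difference differed between sorts for 8 genes by the interaction test (log2, neuronal less non-neuronal): Chrm2 (1.89), Htr2b (1.43), Chrnb4 (-1.82), Chrna3 (-2.52), Chrnb2 (-3.31), Chrna7 (-3.65), Htr3b (-4.16) and Htr4 (-4.18).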

How the results depend on the processing

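Counts of called receptor genes for sort moved to 15 within colon, against 25 overall. Within Crick the counts were 1 for neuronal segment, 0 for non-neuronal segment and 0 for the interaction. Within colon and within SI they were 1 and 0 for neuronal facility and 1 and 1 for non-neuronal facility. Without a filter neuronal segment gave 8 and non-neuronal facility 11, and DESeq2 gave 6 and 9. All 32 libraries in 1 fit gave 0 for neuronal and 8 for non-neuronal facility. Without the 6 libraries set apart, non-neuronal segment gave 4, non-neuronal facility 2 and the interaction 5. Leaving out 1 library gave 3 to 5 for neuronal segment. The cause was not tested, other than that subsets hold fewer libraries.

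Over all genes, the count for sort was 7435 within colon, against 9369 over all strata. Within Crick the count over all genes was 5925 for sort, 159 for neuronal segment, 49 for non-neuronal segment and 33 for the interaction. Neuronal facility gave 538 within colon and 119 within SI, and non-neuronal facility 206 and 851. Without a filter the counts were 1652 for neuronal segment, 2155 for neuronal facility and 6373 for non-neuronal facility. DESeq2 gave 1905 and 3190 for neuronal and non-neuronal segment, 2663 and 4610 for neuronal and non-neuronal facility, and 2286 for the interaction. All 32 libraries in 1 fit gave 2862 for non-neuronal segment and 3176 for non-neuronal facility, and leaving out the 6 libraries 764 and 745. Leaving out 1 library gave 1172 to 2417 for non-neuronal segment and 799 to 1818 for neuronal facility.

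Directions turned for 5 values: Chrna3 in neuronal segment within Bern (-0.03), Htr4 in neuronal facility without Bern colon library 3 (-0.28, range -0.28 to 0.57 without 1 library), Chrna3 in non-neuronal facility without the 6 libraries (-0.23), Htr4 in non-neuronal facility within colon (0.32) and Htr3b in the interaction within Crick (0.12), where Htr3b passed over both facilities.

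Replicate numbers are shared between groups. Over 10287 genes, 14 of 48 same-numbered pairs within a facility had a correlation of deviations over 0.1 (range -0.502 to 0.706). Between the sorts of a segment this held for 8 of 8 pairs in Crick (0.11 to 0.706) but 0 of 8 in Bern (-0.005 to 0.081). By another measure, 12 of 16 Crick and 9 of 16 Bern libraries correlated best with their own number in the other sort of their segment. Whether the numbers pair the sorts in Bern was thus not settled. With the replicate block by number within facility 26 receptor genes were called for sort, 3 for neuronal segment, 6 for non-neuronal segment, where Htr4 (3.02, adjusted p = 0.14), Htr3b (3.84, adjusted p = 0.0662) and Chrnb2 (2.26, adjusted p = 0.0706) no longer passed, and 8 for the interaction, where Htr3b did not (-4.32, adjusted p = 0.0638) and Adra2a did (-3.15, adjusted p = 0.0491). With the block within facility and segment, added after seeing the data, 26 were called for sort and 6 for the interaction. At these depths a gene at 0 in a group may still be present at up to 0.239 CPM.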

Other observations

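Counts of a receptor gene sat in a single library more often in Bern than in Crick. Among pairs of a receptor gene and a group with at least 50 counts, 1 library held 80% or more of them in 16 of 87 Bern pairs (18.4%) and in 1 of 91 Crick pairs (1.1%). Over all genes the shares were 7.86% in Bern and 0.84% in Crick. This difference between facilities was not tested. Drd1, the D1 dopamine receptor gene, had 78 of 78 counts in library 4 of Bern colon neuronal nuclei and 61 of 61 in library 4 of Bern SI non-neuronal nuclei. Hrh2 and Chrna6 had 101 of 101 and 73 of 73 counts in library 1 of Bern colon neuronal nuclei. Hrh1 had 170 of 171 counts in library 4 of Bern colon non-neuronal nuclei, and in Crick the pair was Hrh3 in SI neuronal nuclei, with 82 of 102 counts in library 4.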
